A study of Arabidopsis thaliana with 12 samples.

Results

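A set of 5 Arabidopsis genes that low oxygen switches on strongly, and about whose function little is known, was followed through wild-type seedlings and seedlings overexpressing HRE1 or HRE2. They are AT5G10040, the rhodanese-like gene AT2G17850, AT5G66985, AT3G29970 and AT4G17670. They were chosen by name as core hypoxia genes, with their induction in these arrays already known, so that induction is given below as a description and without a test. Each of the 5 has 1 probe set, and all 5 passed the filter on low signal, as did 13687 of the 22810 probe sets in the table. All but AT5G66985 had means below the filter level in most air groups, and AT5G10040, AT2G17850 and AT4G17670 passed only through their hypoxia arrays.

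Plants that run short of oxygen lose mitochondrial respiration and turn to fermentation, and a compact set of genes is transcribed in roots and shoots alike. Group VII ethylene response factors drive much of this set. Oxygen-dependent oxidation of their amino terminus marks them for proteolysis in air, and they persist when oxygen falls. HRE1 and HRE2 belong to this group and are themselves induced by hypoxia. Beside fermentation enzymes and oxygen-sensing proteins the core set holds many short proteins with no assigned activity. Rhodanese-like proteins such as that of AT2G17850 share a fold with sulfurtransferases and some phosphatases. AT4G17670 is counted in the family of FCS-like zinc finger proteins, several of which bind the SnRK1 energy-sensing kinase.

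The study measured total RNA from whole 7-day-old Columbia-0 seedlings on 12 Affymetrix arrays, 1 per biological replicate. Seedlings were wild type (WT), 35S::HRE1 (HRE1ox) or 35S::HRE2 (HRE2ox), where 35S is a viral promoter active in nearly all tissues, and the labels do not say how many independent transformants stand behind a line. All were grown on half-strength Murashige and Skoog agar with 30 mM sucrose, then darkened for 4 h at 23 °C with either 21% oxygen (air) or 1% oxygen (hypoxia), which gave 6 groups of 2 arrays. Values are log2 (intensity + 1) from the authors' GCRMA intensities, differences are on the log2 scale with the moderated SE from limma, and adjusted p-values are limma's over all 13687 tested probe sets. A level under log2 4, the filter level, is near background.

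Median intensity was 32.75 to 35.7 over the 12 arrays, whose small number limits every estimate. Replicate 1 of both WT groups and both HRE1ox groups stood apart in an added control transcript, the 5' probe set of thr, at 8.09 to 8.36 against 3.10 to 4.57 on the other 8. The same 4 arrays had a 3' minus 5' difference in the seedlings' own GAPDH of 1.88 to 2.20, against 2.41 to 2.94. The ecotype entry of WT air replicate 2 names 35S::HRE2 and its title wild type; the title was followed. No probe set is assigned to HRE1 or HRE2, so the transgenes were not checked by name. The probe set that differed most between HRE2ox and WT in air, which has no assigned gene and was chosen after its values were seen, read 3.23 on that array and 14.51 and 14.40 on the HRE2ox air arrays. Of the tissue markers, 3 of 8 root genes and 1 of 10 green-tissue genes had a probe set matched to 1 gene. The other markers were not read, whether or not the array measures them. Each marker read had a mean above the filter level in WT and HRE1ox air, and in HRE2ox air EXPA7 was below it. In a whole seedling, fewer cells of a type and less RNA per cell cannot be told apart.

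AT5G10040, a gene to which the tables used here give no function, went from background in air to a strong signal in hypoxia in all 3 genotypes. In WT it read 3.15 and 3.07 in air and 11.25 and 11.63 in hypoxia. The HRE1ox arrays gave 3.20 and 3.37 in air and 12.18 and 12.35 in hypoxia. The HRE2ox arrays gave 2.84 and 2.86 in air and 11.68 and 11.20 in hypoxia. The smallest hypoxia value thus lay far above the largest air value in every genotype. Hypoxia minus air was 8.33 ± 0.19 in WT, 8.98 ± 0.19 in HRE1ox and 8.59 ± 0.19 in HRE2ox. Since air was below the filter level, only a bound holds: with air values raised to log2 4, the signal was at least 173-fold higher in hypoxia in WT, 307-fold in HRE1ox and 174-fold in HRE2ox.

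AT2G17850 followed the same course. WT read 3.62 and 3.05 in air and 10.44 and 10.13 in hypoxia. HRE1ox read 3.05 and 4.11 in air, 1 array thus passing the filter level, and 11.81 and 11.42 in hypoxia. HRE2ox read 2.75 and 2.43 in air and 10.16 and 10.63 in hypoxia. Both HRE1ox hypoxia arrays lay above the other 4 hypoxia arrays, whereas those of WT and HRE2ox overlapped. The induction was 6.95 ± 0.35 in WT, 8.04 ± 0.35 in HRE1ox and 7.80 ± 0.35 in HRE2ox. With air at the filter level these are at least 78.1-fold, 189-fold and 84.1-fold.

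AT5G66985, which has no assigned function in the tables used here, was the member with a clear signal in air. Its WT arrays read 6.56 and 6.68 in air and 11.82 and 11.79 in hypoxia. In HRE1ox they read 6.15 and 6.30 in air and 12.15 and 12.29 in hypoxia. In HRE2ox they read 5.29 and 5.36 in air and 11.49 and 11.50 in hypoxia. Replicates lay close together, and no 2 of the 6 groups overlapped. Hypoxia was 36.3-fold above air in WT, 64.0-fold in HRE1ox and 72.1-fold in HRE2ox, or 5.18, 6.00 and 6.17 on the log2 scale (SE 0.12 each).

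AT3G29970 differed between replicates in air by up to 0.91. WT read 4.24 and 3.43 in air and 7.68 and 8.06 in hypoxia. HRE1ox read 4.31 and 5.22 in air and 9.60 and 9.62 in hypoxia. HRE2ox read 2.57 and 2.59 in air and 8.13 and 8.07 in hypoxia. HRE1ox was the one genotype whose air mean, 4.76 ± 0.64 (SD, n = 2), stood above the filter level. Hypoxia minus air was 4.04 ± 0.31 in WT, 4.85 ± 0.31 in HRE1ox and 5.52 ± 0.31 in HRE2ox. The HRE2ox value shrinks to a bound of 4.10 once air is raised to the filter level, below the HRE1ox value, so the order of the genotypes in this gene's induction is not settled.

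AT4G17670, the FCS-like zinc finger gene, had the smallest measured induction of the 5. WT read 3.14 and 3.24 in air and 6.81 and 6.59 in hypoxia. HRE1ox read 3.33 and 3.30 in air and 7.66 and 7.40 in hypoxia, and HRE2ox 3.21 and 3.11 in air and 6.62 and 6.81 in hypoxia. All 6 air arrays were below the filter level, and the hypoxia arrays of WT and HRE2ox overlapped. The induction of 3.51 ± 0.14, 4.21 ± 0.14 and 3.56 ± 0.14 in WT, HRE1ox and HRE2ox corresponds to at least 6.52-fold, 11.6-fold and 6.57-fold.

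**Figure D1:**
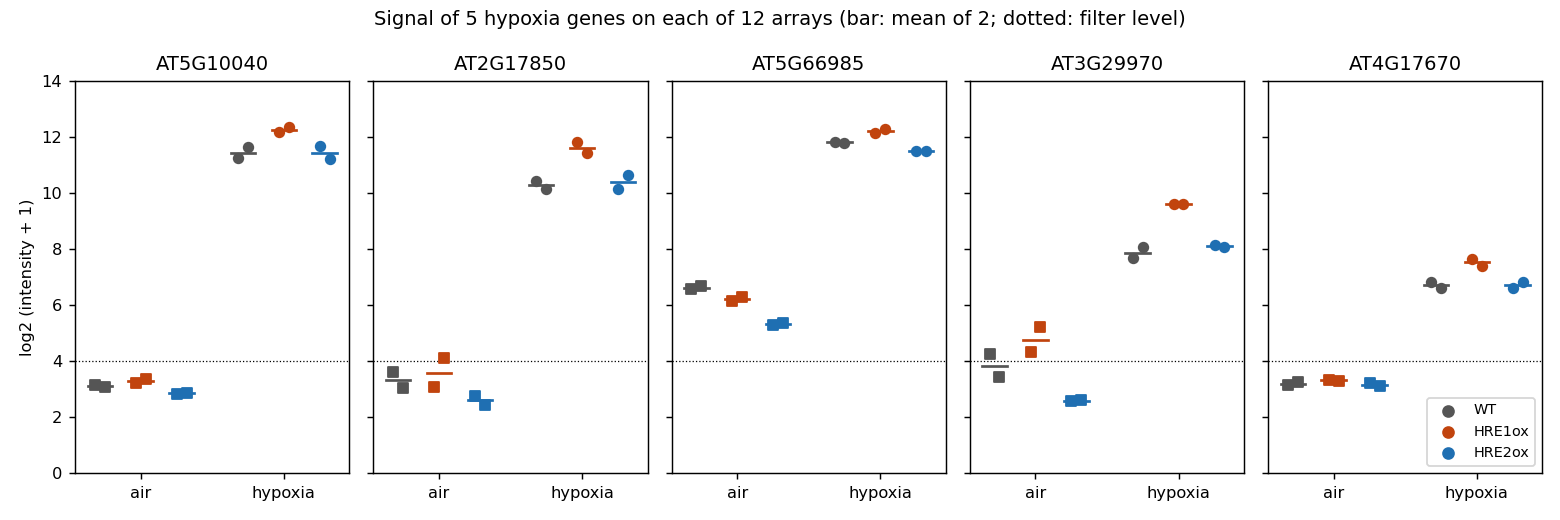
Log2 (intensity + 1) of each gene on each array, by genotype (colour) in air (squares) and hypoxia (circles); bars are the mean of the 2 arrays and the dotted line is the filter level of log2 4. In air AT5G66985 lies above the line in every genotype, and in hypoxia the 2 HRE1ox arrays are the highest for all 5 genes.

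All 5 genes were higher in hypoxia by more than 1 log2 unit in every genotype. Over the tested probe sets 2.63% were in WT, 3.24% in HRE1ox and 2.57% in HRE2ox, and nothing is read from that contrast because it chose the genes. The plot of induction by genotype sets the measured differences beside their bounds. Over the 12 arrays the 10 pairs among the 5 genes correlated at Pearson r from 0.959 to 0.995, as a description of profiles that share the same arrays and the same step from air to hypoxia. Beside the induction, the 3 measured root markers, the root hair expansins EXPA7 and EXPA18 and the endoglucanase GH9C1, were called lower in hypoxia in each genotype, with hypoxia means all below the filter level, so only a bound holds. With values under log2 4 set to 4 their median was -1.43 in WT and -1.89 in HRE1ox, where 2 of 3 were called, and -0.66 in HRE2ox, where 0 were. RCA, the Rubisco activase of green tissue, was not called (-0.01, -0.02 and 0.18). The part of tissue makeup in the induction was not tested.

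**Figure D2:**
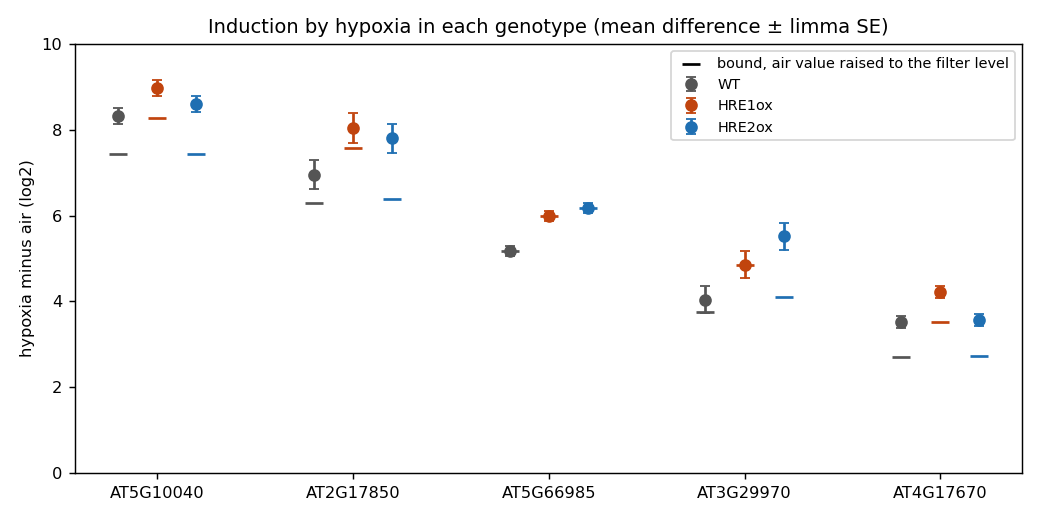
Hypoxia minus air on the log2 scale for each gene in each genotype, as the difference of 2-array means with the limma SE (points and bars), and the bound obtained with air values raised to the filter level (dashes). For AT5G66985, with air above that level, point and bound coincide at 5.18 in WT, 6.00 in HRE1ox and 6.17 in HRE2ox.

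The order of the 6 group means was nearly the same for the 5 genes. HRE2ox air was the lowest group for all of them and HRE1ox hypoxia the highest. WT hypoxia and HRE2ox hypoxia were neighbours in every case. They overlapped for AT5G10040, AT2G17850 and AT4G17670, and did not for AT5G66985, where WT was higher, or AT3G29970, where HRE2ox was higher. Among air groups AT2G17850 overlapped between WT and HRE1ox and AT4G17670 between HRE2ox and WT. Every other pair of neighbouring air groups was separate, with gaps of 0.12 to 1.25 between means. The share of tested probe sets with air groups as separate, or in the same order, is not given here, so nothing is read from either. HRE1ox stood above WT in air for 4 genes and below it for AT5G66985, and apart from AT5G66985 these levels lie mainly near background.

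HRE1ox was compared with WT in hypoxia to ask what added HRE1 changes once oxygen is low. The WT mean of AT3G29970 was 7.87 ± 0.27 and its HRE1ox mean 9.61 ± 0.02 (SD, n = 2 each), a rise of 1.74 ± 0.31 or 3.34-fold (adjusted p = 0.0434). AT4G17670 was 1.77-fold higher, at 0.82 ± 0.14 (adjusted p = 0.0364). The other 3 were not called: AT2G17850 differed by 1.33 ± 0.35 (adjusted p = 0.18), AT5G10040 by 0.83 ± 0.19 (adjusted p = 0.107) and AT5G66985 by 0.42 ± 0.12 (adjusted p = 0.243). In all, 2 of 5 were called higher, against 0.511% of tested probe sets, and the median of the 5 was 0.83 against -0.01 over all tested. Among the 23 other core hypoxia genes described below, 0 were called and the median was 0.42. The 5 were chosen with earlier results of these data known, so they are not an independent set. Both HRE1ox arrays were above both WT arrays for 5 of 5 genes, as they were for 14.9% of tested probe sets. The 3 root markers were below the filter level in both groups and give no measure of root share here.

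Both calls rest on all 4 arrays. With any 1 of them left out both were lost, at 1.55 to 1.93 for AT3G29970 and 0.70 to 0.95 for AT4G17670. Calls over all tested probe sets fell as well. The 2 calls were also lost with only the 8 arrays alike in the thr control, at 1.56 and 0.81. The sizes were much the same within each set of arrays. Between the 2 arrays with high thr signal HRE1ox minus WT was 1.91 for AT3G29970, 1.37 for AT2G17850, 0.93 for AT5G10040, 0.84 for AT4G17670 and 0.33 for AT5G66985. Between the other 2 it was 1.56, 1.29, 0.72, 0.81 and 0.50. AT2G17850 was called when values under log2 4 were set to 4 (adjusted p = 0.0152), which leaves its hypoxia difference as it was and lowers the spread that its air arrays give to the fit. AT5G10040 was called with the 4 arrays high in thr as a block (adjusted p = 0.0273).

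In air 0 of the 5 genes were called between HRE1ox and WT, against 0.00731% of tested probe sets (1 probe set). An unadjusted p under 0.05 was reached by 1338 of the 13687 tested probe sets and by 2 of the 5 genes. These 2 were AT3G29970 at 0.93 ± 0.31 (95% interval 0.22 to 1.63, adjusted p = 0.37) and AT5G66985 at -0.40 ± 0.12 (-0.67 to -0.13, adjusted p = 0.301). The intervals are not adjusted for the number of probe sets. The AT3G29970 difference was 0.07 between the replicate 1 arrays and 1.78 between the replicate 2 arrays. AT5G10040, AT2G17850 and AT4G17670 differed by 0.17, 0.25 and 0.12, between groups that were near background.

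**Figure D3:**
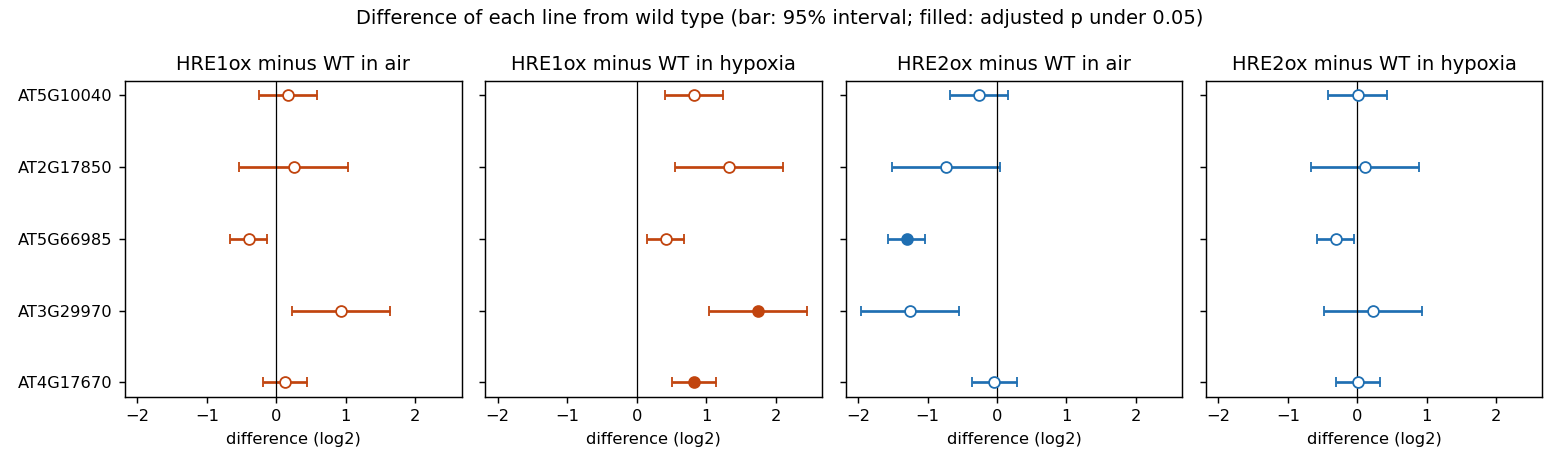
Difference of each transgenic line from WT in air and in hypoxia on the log2 scale (points), with the limma 95% interval, not adjusted for multiple tests (bars); filled points have an adjusted p under 0.05. Filled points are AT3G29970 and AT4G17670 in HRE1ox hypoxia and AT5G66985 in HRE2ox air.

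HRE2ox differed from WT at 1 of the 5 genes in air. AT5G66985 fell by 1.30 on the log2 scale (SE 0.12, adjusted p = 0.00163), from 6.62 ± 0.08 (SD, n = 2) to 5.32 ± 0.04, so that WT had 2.46 times the HRE2ox signal. That call held without any 1 of the 4 arrays (-1.35 to -1.24, adjusted p 0.0166 to 0.0284), WT air replicate 2 with its conflicting label included. It was lost when only these 4 arrays were fitted (adjusted p = 0.102) and with the 8 like arrays alone (-1.35, adjusted p = 0.142). Lower calls made up 0.694% of tested probe sets. AT3G29970 differed by -1.25 ± 0.31 (adjusted p = 0.11), but both groups have means below the filter level, and with values under log2 4 set to 4 the difference was -0.12 (adjusted p = 0.895), while a block of the 4 arrays high in thr called it (-1.32, adjusted p = 0.0443). AT2G17850, AT5G10040 and AT4G17670, near background in both groups, differed by -0.74, -0.26 and -0.04. Beside these differences the 3 root markers had a median of -0.56 in HRE2ox air against WT (-0.53 with values under log2 4 set to 4), with 0 called, and their part was not tested.

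In hypoxia 0 of the 5 genes were called between HRE2ox and WT, against 0.0731% of tested probe sets. An unadjusted p under 0.05 was reached by 1238 of the 13687 tested probe sets and by 1 of the 5 genes. That one was AT5G66985, again lower in HRE2ox, at -0.31 ± 0.12 (95% interval -0.57 to -0.04, adjusted p = 0.469). The intervals of the others were -0.42 to 0.42 for AT5G10040, -0.67 to 0.88 for AT2G17850, -0.47 to 0.94 for AT3G29970 and -0.31 to 0.33 for AT4G17670. For each of the 5 genes the interval leaves out the difference measured for HRE1ox, but that difference has an SE of its own, so this is no test between the lines. The direct comparison of the lines in hypoxia, given below, called 2 of the 5. Both comparisons with WT share the WT arrays.

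**Figure D4:**
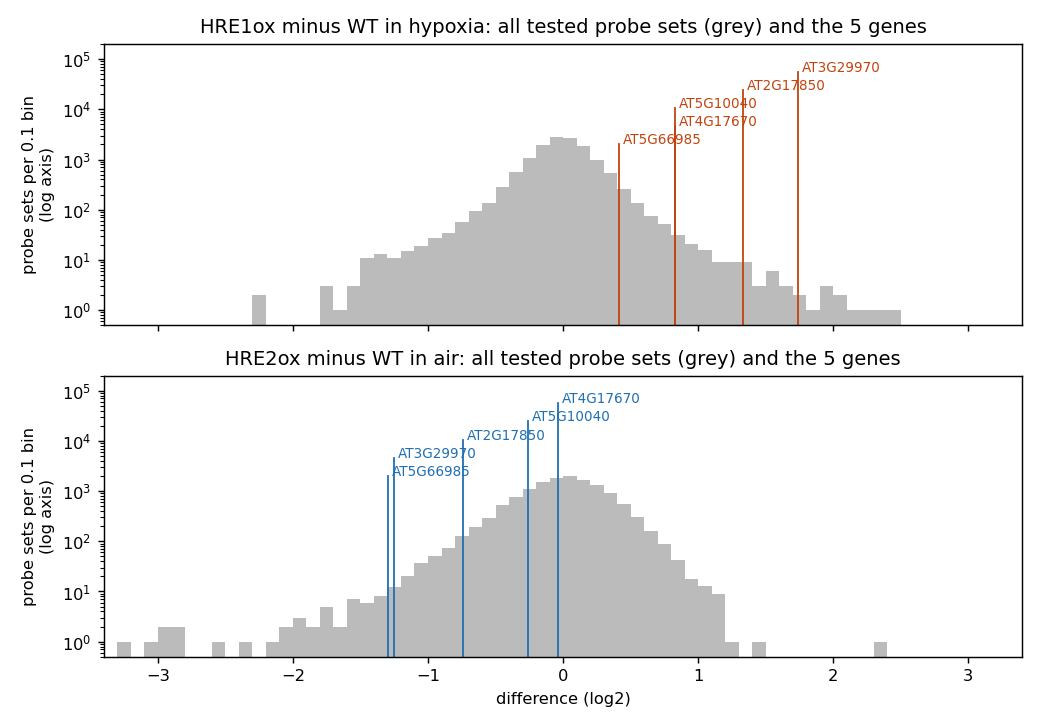
Number of tested probe sets per 0.1 log2 bin (log axis) by their difference between HRE1ox and WT in hypoxia (top) and HRE2ox and WT in air (bottom), with a line at the difference of each of the 5 genes. Differences beyond 3.4 on either side are not drawn; the 5 genes lie right of 0 in the top panel, from 0.42 to 1.74, and left of it in the bottom panel, from -1.30 to -0.04.

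HRE1ox hypoxia exceeded HRE2ox hypoxia at 2 of the 5 genes. AT4G17670 was higher by 0.81 ± 0.14 (adjusted p = 0.0436) and AT5G66985 by 0.72 ± 0.12 (adjusted p = 0.0336), against higher calls in 0.453% of tested probe sets. AT3G29970 at 1.51 ± 0.31 (adjusted p = 0.0821), AT2G17850 at 1.22 ± 0.35 (adjusted p = 0.25) and AT5G10040 at 0.82 ± 0.19 (adjusted p = 0.117) did not pass. The 2 HRE1ox arrays were above both HRE2ox arrays for all 5 genes, as for 17.9% of tested probe sets. The calls of AT4G17670 and AT5G66985 were lost with any 1 of the 4 arrays left out, at 0.685 to 0.94 and 0.66 to 0.79. Calls over all tested probe sets fell as well. The 2 calls were also lost with only the 8 like arrays, at 0.685 and 0.79. The number called was 4 with values under log2 4 set to 4 and 4 with the arrays high in thr as a block. Under that block calls over all tested probe sets rose from 89 to 353.

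In air 2 of the 5 genes were called higher in HRE1ox than in HRE2ox, against 0.431% of tested probe sets. AT5G66985 was higher by 0.90 ± 0.12 (adjusted p = 0.0143), or 1.86-fold, with both groups above the filter level. AT3G29970 was higher by 2.18 ± 0.31 (adjusted p = 0.0214), at 4.76 against 2.58. HRE2ox being near background, the bound is 0.76, and with values under log2 4 set to 4 the call was lost (adjusted p = 0.247). Calls over all tested probe sets fell with any 1 of the HRE1ox or HRE2ox air arrays left out. Without HRE1ox air replicate 2, or without either HRE2ox air array, neither gene was called, with AT5G66985 at 0.82 to 0.93. Without HRE1ox air replicate 1 both remained called. Beside these differences the 3 root markers had a median of 1.03 in HRE1ox against HRE2ox air (0.98 with values under log2 4 set to 4). Of these markers 0 were called and 3 had an unadjusted p under 0.05, as had 1800 of the 13687 tested probe sets. The part of the root markers was not tested.

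Whether the lines change the response itself was asked by the interaction of line and oxygen. Of the 5 genes, 0 passed in HRE1ox, where 0.0804% of all probe sets were called, and 0 in HRE2ox, where 0.0292% were. At an unadjusted p under 0.05 there were 3 and 2, beside 762 and 354 of the 13687 tested probe sets. The response of HRE1ox exceeded that of WT by 0.65 to 1.08 over the 5 genes, with a median of 0.81 against 0.01 over all tested probe sets, but AT3G29970 turned from 0.81 to -0.22 with only the 8 arrays alike in the thr control. For AT5G10040, AT2G17850 and AT4G17670 both air means were below the filter level. With values under log2 4 set to 4 these 3 had 0.83, 1.28 and 0.82, in essence their hypoxia differences. AT5G66985 had 0.82 ± 0.17 (adjusted p = 0.183). In HRE2ox the same gene had 0.99 ± 0.17 (adjusted p = 0.23), which is its hypoxia difference from WT, -0.31, less its air difference, -1.30. With the 4 arrays high in thr as a block AT5G66985 was called in both lines (adjusted p = 0.0412 and 0.0414). AT3G29970 had 1.48 ± 0.44 (adjusted p = 1) in HRE2ox, a value that dropped to 0.35 once values under log2 4 were set to 4. In the same line AT2G17850 dropped from 0.85 to 0.11 with those values set to 4.

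Other core hypoxia genes were read from a list of 50, of which 24 had a probe set matched to 1 gene and 23 were tested. In WT hypoxia 21 of the 23 rose, with a median of 3.15, and 21 rose in each transgenic line. CML38, a calmodulin-like protein, was higher by 6.39 ± 0.19 in WT (adjusted p = 1.55e-07) and AT4G10270, of the wound-responsive family, by 6.30 ± 0.33 (adjusted p = 3.17e-06). In WT the measured inductions of AT5G10040 and AT2G17850, 8.33 and 6.95, exceeded the highest of the 23 tested, 6.39, but of their bounds, 7.44 and 6.29, the first alone did. Nothing is read from this order, because the 5 genes were chosen with their induction known. Between HRE1ox and WT in hypoxia limma called 0 of the 23. An unadjusted p under 0.05 was reached by 11, and by 1085 of the 13687 tested probe sets. The median of all 23 was 0.42 beside 0.83 for the 5 genes. AT3G03270 came closest, at 0.89 ± 0.17 (adjusted p = 0.0584), and 1 of the 23 was called with values under log2 4 set to 4. In HRE2ox air 2 of the 23 were lower than in WT. AT4G10270 fell by 1.86 on the log2 scale (SE 0.33, adjusted p = 0.0388) and AT4G33560 by 1.78 (SE 0.20, adjusted p = 0.00611), and the median of the 23 was -0.02. AT4G33560 was below the filter level in HRE2ox, and with values under log2 4 set to 4 its difference was -0.85 (adjusted p = 0.0218). Between the lines in hypoxia 1 of the 23 was called, the lactate dehydrogenase gene AT4G17260, higher in HRE1ox by 1.42 ± 0.16 (adjusted p = 0.00499), and 4 were with values under log2 4 set to 4.

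**Figure D5:**
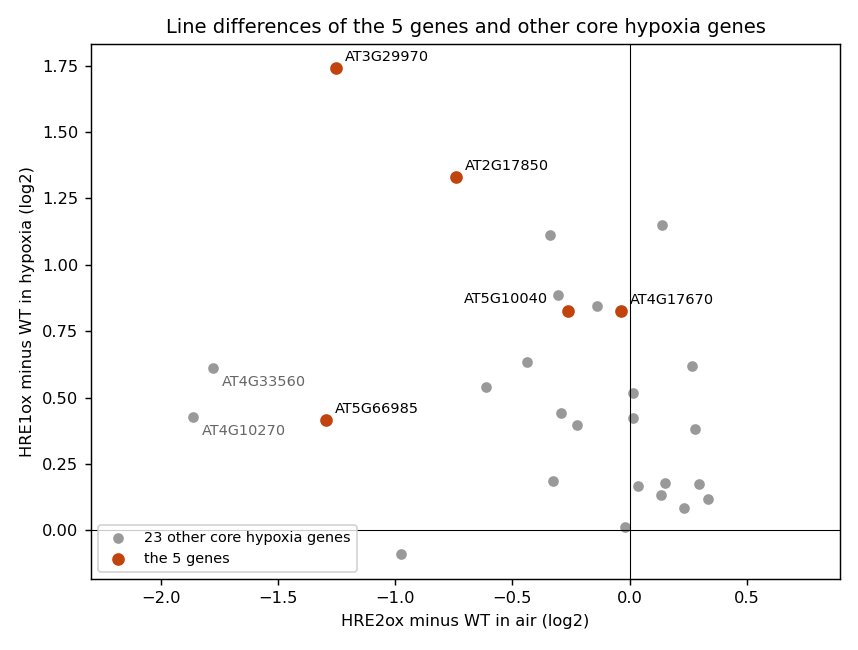
Difference between HRE2ox and WT in air (horizontal, log2) against difference between HRE1ox and WT in hypoxia (vertical, log2) for the 5 genes and 23 other core hypoxia genes; the 2 axes share no array. AT4G10270 and AT4G33560 lie furthest left, at -1.86 and -1.78, followed by AT5G66985 at -1.30 and AT3G29970 at -1.25. The air means of AT3G29970 in HRE2ox and in WT were below the filter level. AT3G29970 also has the highest vertical value, 1.74.

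Of 17 other FCS-like zinc finger genes 9 were tested, and 3 of them rose in hypoxia in every genotype: AT5G47060 (2.31 ± 0.21 in WT), AT1G74940 (2.49 ± 0.42) and AT3G22550 (1.35 ± 0.18). The first 2 are also on the core hypoxia list, and the median of the 9 in WT was -0.05. Between hypoxia and air 901 of the 13687 tested probe sets were called in either direction in WT, 1696 in HRE1ox and 953 in HRE2ox. Between HRE1ox and WT in hypoxia 0 of the 9 were called and 4 had an unadjusted p under 0.05, where AT4G17670 was called at 0.82. Such an unadjusted p was reached by 1085 of the 13687 tested probe sets. Of 10 other rhodanese-like genes 6 were tested, with 0 called higher in hypoxia in any genotype. STR18 fell by 1.05 on the log2 scale in HRE1ox (SE 0.19, adjusted p = 0.00672) and by 0.85 in HRE2ox (SE 0.19, adjusted p = 0.0308), and was -0.52 in WT. The highest value among those 6 in any genotype was 0.07.

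The genes with the most similar profiles were sought among 7312 other tested probe sets with 1 gene, by Pearson correlation over the 12 arrays, given as a description of profiles that share arrays and one large step. AT5G10040 was closest to CML38 (r = 0.997), AT1G11330 (r = 0.996) and AT5G44730 (r = 0.995). AT2G17850 was closest to AT3G03270, AT3G28480 and AT3G10040 (r = 0.995 each). AT4G17670 was closest to AT3G10040 (r = 0.999), whose difference between HRE1ox and WT in hypoxia was 1.11, with AT3G03270 and AT1G17830 next (r = 0.997 each). AT5G66985 was closest to AT4G33560 (r = 0.997), AT4G10270 (r = 0.996) and CML38 (r = 0.994). The first 2 of these are the genes of the core list that were also called lower in HRE2ox air. The 12 arrays of the correlation include the air arrays of that comparison, so the 2 results are not separate. AT3G29970 had the weakest matches, with ARL, a promoter of organ growth, AT5G63180 and AT1G66880 (r = 0.979, 0.979 and 0.978). Of its 3 matches 0 are on the core list, whereas at least 2 of the 3 are for each of the other genes.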

How the data were processed

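Total RNA of 12 seedling samples was measured on Affymetrix Arabidopsis arrays, and arrays were grouped by their titles into 6 groups of 2. The authors deposited 1 intensity per probe set and array that is not logged. Per the submitters' processing notes it came from GCRMA, a background correction by probe sequence followed by quantile normalization; neither version nor settings appear in the sources used here. That the scale is linear was read from the values. The number of arrays limits precision, and sequencing depth does not apply to arrays. A platform table joined to RefSeq (TAIR10.1) by Entrez identifier named the probe sets; 13436 had 1 matched gene, among them all 5 members. The files name no genome build, so no coordinates are given.

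Here log2 (intensity + 1) was tested with limma 3.58.1 in R 4.3.3 (lmFit, eBayes), 1 model over 6 groups with 6 residual and 3.25 prior degrees of freedom. The 64 control probe sets were left out, and a probe set had to reach log2 4 on 2 or more arrays. In each of 8 tested comparisons two-sided p-values received the Benjamini-Hochberg adjustment over all tested probe sets, with 0.05 as the limit for a call. The procedure was tested on simulated data. A bound replaces values under log2 4 by 4. Intervals are limma's, unadjusted. P-values measure the spread between arrays labelled biological replicates.

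The members and gene lists were chosen, and the lists written from general knowledge, with earlier results of these data known. Genes named are the 5 members, the 3 most similar profiles of each, up to 4 core hypoxia genes a comparison with the largest difference, and genes called in a family list. Family and marker genes called were named after their values were seen.

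Replicate numbers were checked by correlating replicate 1 minus replicate 2 between groups, which gave 0.67 to 0.75 among WT and HRE1ox groups and -0.58 to -0.24 between these and HRE2ox. No label ties equal numbers to shared handling, so the number is a block only in alternatives. Others were the arrays fitted, median centring, the pseudocount, the filter, a floor, the variance model and leaving out each array.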

Additional observations from a re-analysis of the deposited data

How the results depend on the processing

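Every group has 2 arrays, 4 of the 5 genes are near background in air, and the number of members called moved with the settings; the cause was not tested except where stated. HRE1ox against WT in hypoxia had 2 members called, then 1 with the replicate number as a block over 12 arrays, 1 without the filter (more probe sets tested), 1 with trended robust eBayes, 0 with the arrays of the comparison only (fewer arrays), 0 with only the 8 arrays alike in the thr control, and 0 with any array left out. It rose to 3 with AT5G10040 under a replicate block over the 8 WT and HRE1ox arrays (adjusted p = 0.0183) or a block of the 4 arrays apart (adjusted p = 0.0273), and with AT2G17850 under a pseudocount of 16 (adjusted p = 0.0248) or a floor at log2 4 (adjusted p = 0.0152). HRE2ox against WT in air had 1, then 0 with its own arrays only or the 8 alike, and 2 with a block for the 4 arrays apart. HRE1ox against HRE2ox in air had 2, then 0 with its own arrays only, 1 each with a pseudocount of 16, a floor at log2 4 or the 8 arrays alike, and 0 to 2 with 1 array left out. In hypoxia it had 2, then 0 with its own arrays only or the 8 alike, 1 with trended robust eBayes, 4 each with the block of the 4 arrays, the pseudocount or the floor, and 0 with any array left out. The block of the 4 arrays called 1 member, AT5G66985, in each interaction (adjusted p = 0.0412 in HRE1ox and 0.0414 in HRE2ox), which had 0. Pairing numbers crosswise in HRE2ox, an alternative added like the 8 arrays after seeing the data, called 3 in HRE1ox against WT in hypoxia, 2 in HRE2ox against WT in air and 4 between the lines in hypoxia. With an array left out, the lone array is assumed to vary like the other groups. Calls over all probe sets then fell too in every comparison that had a member called in the main fit.

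Differences that changed sign were not called. AT4G17670 in HRE2ox against WT in air became 0.014 with the block of the 4 arrays and spanned -0.088 to 0.015 with 1 array left out. AT5G10040 in HRE2ox against WT in hypoxia became -0.077 with that block and -0.19 with the 8 arrays alike, and spanned -0.24 to 0.24 with 1 array left out. The AT3G29970 interaction in HRE1ox, 0.81, became -0.22 with the 8 arrays. With 1 array left out, AT2G17850 spanned -0.28 to 0.77 in HRE1ox against WT in air and -0.13 to 0.34 in HRE2ox against WT in hypoxia, and AT4G17670 -0.10 to 0.12 in the latter and -0.062 to 0.16 in the HRE2ox interaction. Of 655 recomputed differences of the members, 579 kept direction and side of the threshold. Most of these were uncalled in the main fit and stayed so. The share therefore says little about the calls, which were lost in many settings as given above.

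Calls over all probe sets moved more. Against 115 for HRE1ox and WT in hypoxia there were 0 to 469, and in air 1 to 185 against 1, both highest with the replicate block over 8 arrays. HRE2ox against WT had 6 to 1100 in air against 128 and 2 to 147 in hypoxia against 10, and HRE1ox against HRE2ox 10 to 658 in air against 73 and 4 to 353 in hypoxia against 89. The interactions had 0 to 82 against 11 in HRE1ox and 1 to 17 against 4 in HRE2ox.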
